A study of Mus musculus with 14 samples.

Results

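Complexes II to V of the respiratory chain are assembled in the inner membrane of the mitochondrion, and most of their subunits are encoded in the nucleus. The genes described here were taken from the raw counts matrix by mouse symbol: the succinate dehydrogenase genes Sdha to Sdhd, and every protein-coding gene with a name beginning with Uqcr, with Cox4 to Cox8, or with Atp5. This gave 50 identifiers out of 55414 in the matrix, of which 21627 were protein-coding. They fall into 4 of complex II, 8 of complex III, 19 of complex IV and 19 of complex V. Atp5po stands under 2 identifiers, so that the 50 members carry 49 symbols.

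RNA-seq was carried out on granulosa cells (GCs), the somatic cells around the oocyte, taken from antral follicles of 2 mouse models of genetic obesity. The db/db mice (B6.BKS(D)-Leprdb/J) lack the long form of the leptin receptor, the ob/ob mice (B6.Cg-Lepob/J) lack leptin, and lean littermates of each model served as controls (CT db and CT ob). The libraries, 4 each of CT db and db/db and 3 each of CT ob and ob/ob, were each made from about 50 pooled cells of females kept on chow until 12 wk of age. Polyadenylated RNA was caught on beads, reverse transcribed and amplified. The labels call the controls wild type, while the matrix columns of the controls read as heterozygous, and this was not settled here. The models are separate colonies, so that model and colony cannot be told apart. Nothing states that the libraries of a group came from separate animals, and p-values therefore measure the spread between these samples, which may be technical. Libraries are numbered within each group by their order in the matrix, since the columns carry no replicate number of the labels.

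The complexes differ in their parts and in what drives them. Complex II passes electrons from succinate to ubiquinone, complex III passes them from ubiquinol to cytochrome c, and complex IV passes them from cytochrome c to oxygen. Complexes III and IV pump protons, and complex V, the ATP synthase, uses the proton gradient to make ATP. Complexes III, IV and V also hold subunits encoded in the mitochondrial genome. In the antral follicle the GCs are supplied without capillaries of their own and feed the oocyte with metabolites.

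The counts on genes per library were 3624237, 4840714, 3655759 and 3807338 in CT db, 2494955, 2204686, 2228526 and 3059777 in db/db, 4847166, 3762905 and 3664219 in CT ob, and 5306632, 6907152 and 8367593 in ob/ob. Levels are given in CPM, that is counts scaled by library size and by TMM factors. The library sizes were taken over all genes, and the factors over the genes that passed a filter on low counts. Since the cells were pooled, fewer cells of a type and less RNA per cell cannot be told apart in these levels. The members together took between 0.962% and 1.199% of the counts of a library. A single gene, Atp5f1b, took 12.99% to 20.8% of the members' counts. All 14 libraries held counts of the granulosa markers Foxl2 and Fshr.

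On the TMM scale CT ob replicate 3 stood apart from every other library in the level of the members. Its median deviation from the mean of all libraries was 0.75 on the log2 scale over the 43 members with a count in every library, and 33 of the 43 lay above their mean, as many as in ob/ob replicate 2. In the other 13 libraries this median lay between -0.27 and 0.27. With library size alone the sum of all members was 11420 CPM in CT ob replicate 3, below 11990 in db/db replicate 2, 11950 in ob/ob replicate 2 and 11440 in CT db replicate 3, so that its place in level depends on the scaling. The 20 members with a transcript under 1000 bases deviated by a median of 0.91 in CT ob replicate 3, and the 12 members of 2000 bases or more by 0.17. Over all 11995 genes with a count in every library, the shortest 25% had a median deviation of 0.29 in that library and the longest 25% of -0.13. The next highest difference between short and long members was 0.23, in db/db replicate 2, beside 0.74 in CT ob replicate 3. Counts of the library differed from those of its group mates by a chi-square of 83.9 and 73.2 per gene, while the mates differed from each other by 13.3. The value between ob/ob replicates 2 and 3 was 73.3, below the 83.9 of CT ob replicates 1 and 3 and about that of CT ob replicates 2 and 3. This chi-square rises with depth for the same relative difference, so these values are not on 1 scale. Those ob/ob libraries held 6907152 and 8367593 counts, beside 3762905 and 3664219 in CT ob replicates 2 and 3. The tests, the TMM-scaled medians and the spread that rest on CT ob are therefore given with and without CT ob replicate 3. Its omission from medians by complex and length, the lists, the spread and the DESeq2 test was chosen after the data were seen.

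**Figure D1:**
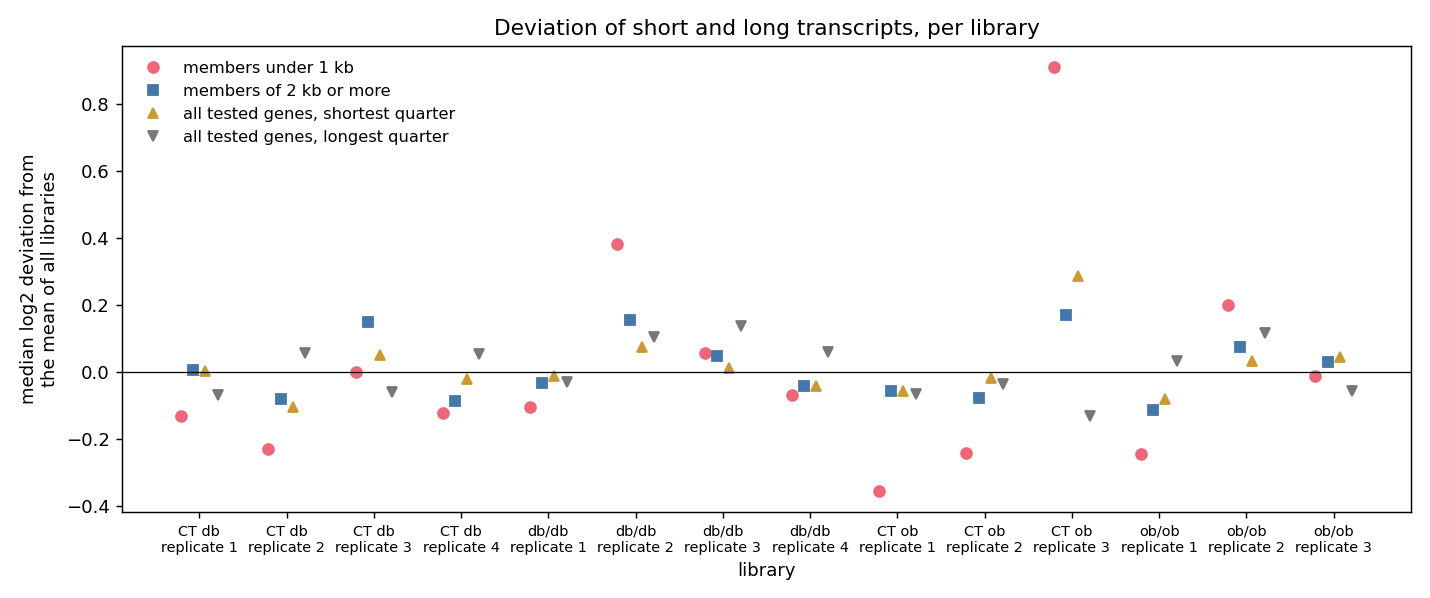
Median log2 deviation from the mean of all libraries (vertical axis) in each library (horizontal axis), for short and long members and for the shortest and longest 25% of tested genes. Short members of CT ob replicate 3 lie at 0.91, above the 0.38 of db/db replicate 2, the next highest library.

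Of the 50 members, 49 had at least 1 count, and the exception was the shorter of the Atp5po identifiers. A filter on low counts kept 42 members in the db model and 43 in the other fits. The edgeR quasi-likelihood test was run over all genes that passed the filter, and genes with an adjusted p of 0.05 or less were called. Cox5b-ps, Cox6a2, Cox7a1, Cox7b2, Cox8b and Cox8c did not pass it in any fit, and Cox6b2 did not pass in the db model. Cox5b-ps is given as protein-coding by the annotation, although its symbol marks a pseudogene, and it had 15 counts in all.

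Levels of different genes were compared per kb of the canonical transcript, as the mean over the 14 libraries. Atp5f1b, the catalytic beta subunit of the ATP synthase, was highest with 928 CPM per kb. Cox4i1, the largest nuclear encoded subunit of complex IV, followed with 795 CPM per kb. Cox6c, a small membrane subunit of complex IV, had 409.5 CPM per kb. Atp5f1c, the gamma subunit in the central rotor of complex V, had 384 and Cox6b1, which faces the intermembrane space, 384 CPM per kb. The subunits of 1 enzyme complex did not share 1 transcript level: within complex V the means ran from 12.6 CPM per kb for Atp5mg to 928 for Atp5f1b. In complex II they ran from 26.8 for Sdhc to 179.6 for Sdhd, and in complex III from 28.8 for Uqcr11 to 241 for Uqcrb. These levels depend on the annotated length, which was 4030 bases for Sdhb, 2746 for Uqcr11, 2877 for Atp5mj and 2812 for Atp5mk.

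**Figure D2:**
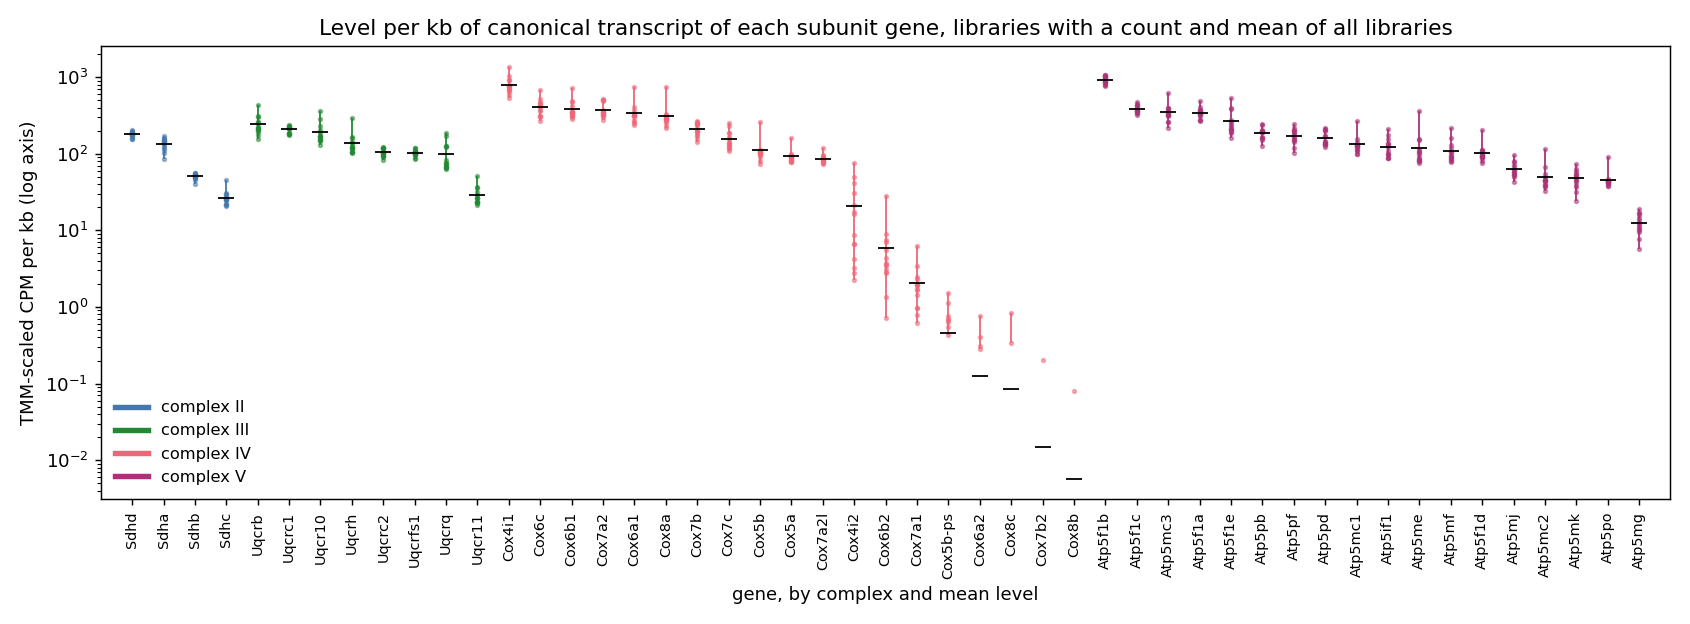
TMM-scaled CPM per kb of canonical transcript on a log axis for the 49 members with a count, ordered by complex and mean level; dots are libraries with a count, lines their range and black bars the mean of all 14 libraries. Atp5f1b is highest at 928 CPM per kb, and the tissue-specific isoforms of complex IV lie at the bottom, down to 0.00574 for Cox8b.

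Complex II is built from nuclear genes alone. Its summed level was 951, 912, 1009 and 886 CPM in CT db, 946, 800.4, 863 and 925 in db/db, 1027, 978 and 929 in CT ob, and 950.5, 863 and 1019 in ob/ob. The sums of the 4 groups overlapped, and CT ob replicate 3 was the lowest library of its group here, although on this scale it was the highest of its group in the sums of the other complexes. Sdha, the flavoprotein that oxidises succinate, had 439, 421, 473 and 384 CPM in CT db, 456, 265, 346 and 412 in db/db, 529.5, 471 and 363 in CT ob, and 454, 315 and 498 in ob/ob. The groups overlapped, and db/db replicate 2 and ob/ob replicate 2 were the lowest libraries. Sdhb, the iron-sulphur subunit that carries electrons on towards ubiquinone, ranged from 160.2 to 229 CPM.

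Sdhc and Sdhd anchor complex II in the membrane and form its ubiquinone site. Sdhc had 69.2, 71.8, 82.2 and 67.7 CPM in CT db, 82.3, 96.8, 78.8 and 70.6 in db/db, 87.96, 98.9 and 144 in CT ob, and 82.7, 91.5 and 79.05 in ob/ob. All 3 CT ob libraries lay above all 4 CT db libraries, and CT ob replicate 3 was the highest of all. The difference between the controls missed the threshold (log2 difference 0.60, SE 0.17, adjusted p = 0.0502 by edgeR). It was 0.35 without CT ob replicate 3, with an adjusted p of 0.211 by edgeR, and over the alternatives the adjusted p ran from 0.018 to 0.211. In ob/ob against CT ob Sdhc gave a log2 difference -0.39, SE 0.22, adjusted p = 0.678 by edgeR, and -0.15 (adjusted p = 0.832 by edgeR) without CT ob replicate 3, with overlapping libraries.

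Sdhd had 234, 259, 224 and 229.9 CPM in CT db, 208, 218, 229.9 and 246 in db/db, 216, 197 and 195 in CT ob, and 233, 244 and 229.8 in ob/ob. The 3 CT ob libraries lay below all CT db and all ob/ob libraries, while db/db and CT db overlapped. Within the groups Sdhd hardly varied: its pooled standard deviation (SD) on the log2 scale was 0.0859, which ranked 20 from the lowest among 11995 genes (0.0878 and rank 39 without CT ob replicate 3).

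Complex III has 8 nuclear encoded subunits here, and Cyc1, which carries cytochrome c1, lies outside the naming rule. The summed level of complex III was 1384, 1404, 1486 and 1290 CPM in CT db, 1322, 1575, 1525 and 1356 in db/db, 1323, 1333 and 1913 in CT ob, and 1309, 1651 and 1519 in ob/ob. The groups overlapped, with CT ob replicate 3 highest, and without it CT ob held the values 1323 and 1333, within the range of CT db. With library size alone its sum was 1536 CPM, below ob/ob replicate 2 (1726), db/db replicate 2 (1661) and db/db replicate 3 (1580). Uqcrc1 and Uqcrc2 are the large core proteins on the matrix side. Uqcrc1 had 303, 296, 306 and 294 CPM in CT db, 312, 359, 379.7 and 359 in db/db, 375, 357 and 351 in CT ob, and 357, 377 and 391 in ob/ob. Every db/db, CT ob and ob/ob library lay above every CT db library. The difference passed the edgeR test neither in db/db (log2 difference 0.23, SE 0.12, adjusted p = 0.681 by edgeR) nor between the controls (log2 difference 0.27, SE 0.12, adjusted p = 0.16 by edgeR, and 0.28 (adjusted p = 0.228 by edgeR) without CT ob replicate 3). DESeq2 called Uqcrc1 between the controls with all libraries, but not without CT ob replicate 3 (0.29, adjusted p = 0.064 by DESeq2). The pooled SD of Uqcrc1 was 0.0775 on the log2 scale, rank 9 from the lowest of the 11995 genes, and the lowest among the members. It was 0.0801, rank 16, without CT ob replicate 3. Uqcrc2 ranged from 189.7 to 286 CPM, and its groups overlapped in all 4 comparisons of groups.

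Uqcrb lies beside the ubiquinone site of complex III. Uqcrb had 146, 238, 172 and 170.3 CPM in CT db, 114, 117, 99.2 and 108 in db/db, 87.00, 115 and 120.3 in CT ob, and 127, 122 and 145 in ob/ob. All 4 CT db libraries lay above all libraries of the other groups, and within the ob model the order was the opposite, with the 3 ob/ob libraries above the 3 CT ob libraries. Its level was lower in CT ob than in CT db (log2 difference -0.76, SE 0.18, adjusted p = 0.0259 by edgeR), in 3 of 3 against 4 of 4 libraries. In db/db against CT db the result did not pass (log2 difference -0.74, SE 0.16, adjusted p = 0.363 by edgeR), although the 4 libraries of each group did not overlap. DESeq2 gave this difference an adjusted p of 0.0282, and the alternatives ranged from 0.00297 to 0.9.

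The test of whether the mutations differed in their effect did not call Uqcrb (log2 difference 1.02, SE 0.24, adjusted p = 0.265 by edgeR). With DESeq2 the adjusted p was 0.0267, and 0.0316 without CT ob replicate 3. The former lies within a range of 0.025 to 0.522 over the alternatives, and edgeR without CT ob replicate 3 gave 1.13 (adjusted p = 0.342 by edgeR). Uqcrb was no longer called between the controls without CT db replicate 2 (-0.60, adjusted p = 0.0716 by edgeR), without CT db replicate 4 (-0.79, 0.0542), without CT ob replicate 1 (-0.63, 0.0742) or without CT ob replicate 3 (-0.86, 0.0567). Over all alternatives its adjusted p ran from 0.00183 to 0.0742. Over its canonical transcript 86.7% of the bases match a place on chromosome 1 (1:170752746-170753229, GRCm39) at 98.3% identity, where the pseudogene Gm2962 had 10 counts beside 8070 for Uqcrb. Gm9929 and Fcrla, which also lie at that place, had 55 and 39 counts. Counting could split reads between Uqcrb and that place, so that the level of Uqcrb is uncertain.

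The remaining subunits of complex III are small. Uqcrfs1, the Rieske iron-sulphur protein, ranged from 189 to 264 CPM. Uqcrh, the hinge protein next to cytochrome c1, ranged from 144 to 416 CPM, and Uqcrq from 97.2 to 289 CPM. Uqcr10 ranged from 57.5 to 164 CPM and Uqcr11 from 59.2 to 142 CPM. The highest library of Uqcrh, Uqcrq, Uqcr10 and Uqcr11 was CT ob replicate 3 in each case, while Uqcrfs1 was highest in ob/ob replicate 3.

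Complex IV, cytochrome c oxidase, had the summed level 2072, 2054, 2351 and 2177 CPM in CT db, 2062, 2856, 2562 and 2211 in db/db, 1769, 1964 and 3986 in CT ob, and 1878, 2760 and 2187 in ob/ob. CT ob replicate 3 lay above all other libraries, at 3986 CPM beside 1769 and 1964 CPM in its group mates, and the groups overlapped. With library size alone in place of TMM the same sum was 3200 CPM beside 1904 and 2095. Cox4i1 binds ATP and adjusts the activity of the enzyme. Cox4i1 had 575, 531, 617 and 592 CPM in CT db, 569, 820.2, 713 and 597 in db/db, 417, 497 and 1076 in CT ob, and 463, 718 and 535 in ob/ob. The libraries of all groups overlapped, and CT ob held both the lowest and the highest.

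Cox5a, on the matrix side of complex IV, ranged from 54.7 to 114 CPM. Cox5b, which binds zinc on the same side, ranged from 66.5 to 237 CPM. Cox6a1, a regulatory subunit, ranged from 135 to 422 CPM. Cox6b1 ranged from 187 to 472 CPM and was highest in CT ob replicate 3, as were Cox5a, Cox5b and Cox6a1. Cox6c ranged from 134 to 338 CPM. Cox7a2, the common form of Cox7a, ranged from 228 to 416 CPM. Cox8a, a small membrane subunit, ranged from 123 to 417 CPM. Cox7a2l ranged from 91.5 to 149.9 CPM. Cox7b, needed for assembly of complex IV, had 232, 267, 249 and 209 CPM in CT db, 157, 253, 246 and 197 in db/db, 146, 170.4 and 179.5 in CT ob, and 198, 272 and 198 in ob/ob. All 3 CT ob libraries lay below all 4 CT db and all 3 ob/ob libraries. Neither difference passed the test: between the controls the result was log2 difference -0.53, SE 0.18, adjusted p = 0.0893 by edgeR, and in the ob model log2 difference 0.42, SE 0.20, adjusted p = 0.638 by edgeR. They were -0.61 (adjusted p = 0.134 by edgeR) and 0.49 (adjusted p = 0.624 by edgeR) without CT ob replicate 3. DESeq2 called Cox7b between the controls with all libraries, but not without CT ob replicate 3 (-0.60, adjusted p = 0.067 by DESeq2). Cox7c, a small membrane subunit, had 74.3, 69.9, 77.5 and 62.8 CPM in CT db, 65.2, 123, 99.6 and 89.7 in db/db, 63.4, 69.8 and 135 in CT ob, and 58.3, 102 and 83.98 in ob/ob. The db/db libraries overlapped with CT db through db/db replicate 1, and the difference did not pass (log2 difference 0.40, SE 0.18, adjusted p = 0.648 by edgeR).

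Several subunits of complex IV come in isoforms from separate genes, a common form and 1 or more forms known from particular tissues. Cox6a2, Cox7a1 and Cox8b are forms of heart and skeletal muscle, and Cox6b2, Cox7b2 and Cox8c forms of the testis. Cox6a2 had 6 counts over the 14 libraries, Cox7b2 had 1, Cox8b had 1 and Cox8c had 3. Cox7a1 had 59 counts, and it made up 0.169% to 1.25% of the Cox7a1 and Cox7a2 level per kb of canonical transcript. With the length of all exons joined, chosen after the data were seen, it made up 0.891% to 6.31%. By canonical length Cox6a1, Cox7b and Cox8a made up 99.6% or more of their families in every library.

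Cox4i2, the form of Cox4 known from lung and from cells short of oxygen, varied most among the tested members. Its level was 5.07, 1.704, 38.2 and 16.4 CPM in CT db, 23.4, 13.3, 31.6 and 5 in db/db, 2.11, 3.24 and 12.2 in CT ob, and 2.42, 57.5 and 6.65 in ob/ob. High libraries occurred in CT db, db/db and ob/ob (CT db replicate 3, db/db replicate 3 and ob/ob replicate 2), and the groups overlapped. Its pooled SD was 1.73 on the log2 scale, rank 11950 of 11995 genes, and 1.72 without CT ob replicate 3. As a percent of the family level per kb, Cox4i2 was 0.901, 0.3302, 6.001 and 2.78 in CT db, 4.08, 1.65, 4.37 and 0.857 in db/db, 0.519, 0.668 and 1.16 in CT ob, and 0.535, 7.63 and 1.27 in ob/ob. The libraries with a high share were the same as those with a high level. With all exons joined the highest share was 15.8%, in place of 7.63%. Cox4i2 was called neither in ob/ob against CT ob (log2 difference 1.97, SE 1.13, adjusted p = 0.678 by edgeR) nor between the controls (log2 difference -1.44, SE 1.11, adjusted p = 0.415 by edgeR). They were 3.06 (adjusted p = 0.635 by edgeR) and -2.52 (adjusted p = 0.32 by edgeR) without CT ob replicate 3, and the former was -0.32 without ob/ob replicate 2. With every gene of at least 1 count in place of the filter, edgeR called it in both, and over the alternatives the adjusted p ran from 2.56e-04 to 0.977 and from 0.00167 to 0.819.

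Cox6b2 had 4.22, 2.13, 1.65 and 0.819 CPM in CT db, 2.13, 1.72, 0.433 and 1.88 in db/db, 5.37, 4.48 and 16.7 in CT ob, and 2.24, 2.63 and 3.33 in ob/ob. The CT ob libraries lay above all others, and CT ob replicate 3 lay far above its mates. These levels rest on few counts: 15, 10, 6 and 3 in CT db, and 5, 4, 1 and 6 in db/db. In the ob model there were 28, 18 and 49 in CT ob, and 13, 19 and 27 in ob/ob. With the filter, Cox6b2 was tested only in fits that hold CT ob, so that being tested and lying higher there are not independent. Neither the difference between the controls (log2 difference 1.98, SE 0.58, adjusted p = 0.0525 by edgeR) nor that in the ob model (log2 difference -1.67, SE 0.59, adjusted p = 0.565 by edgeR) passed the threshold. They were 1.14 (adjusted p = 0.28 by edgeR) and -0.84 (adjusted p = 0.695 by edgeR) without CT ob replicate 3. Between the controls DESeq2 called Cox6b2 with all libraries, but not without CT ob replicate 3 (1.17, adjusted p = 0.306 by DESeq2). There edgeR called it with every gene of at least 1 count, without CT db replicate 1 and without CT ob replicate 2. As a percent of the Cox6b1 and Cox6b2 level per kb, Cox6b2 was 2.25, 1.24, 0.774 and 0.399 in CT db, 1.11, 0.588, 0.173 and 0.908 in db/db, 2.82, 2.09 and 3.73 in CT ob, and 1.15, 0.915 and 1.49 in ob/ob. The share was higher in all 3 CT ob libraries than in all 3 ob/ob libraries, and in CT db it overlapped with CT ob through CT db replicate 1. Between the mutants Cox6b2 gave a log2 difference 0.81, SE 0.63, adjusted p = 0.862 by edgeR, with all 3 ob/ob libraries above all 4 db/db libraries.

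Complex V turns the proton gradient into ATP through a rotor and a fixed head, held together by a peripheral stalk. Its summed level was 6065, 6211, 6648 and 5863 CPM in CT db, 5899, 6141, 5898 and 5633 in db/db, 5340, 5695 and 7402 in CT ob, and 5472, 6155 and 6283 in ob/ob. The groups overlapped, and CT ob replicate 3 was highest. With library size alone its sum was 5942 CPM, between those of its mates at 5749 and 6075. Atp5f1b had 2032, 1672, 1918 and 1677 CPM in CT db, 1969, 1477, 1558 and 1666 in db/db, 1962, 1996 and 1856 in CT ob, and 1665, 1532 and 2035 in ob/ob. The groups overlapped, and db/db replicate 2, ob/ob replicate 2 and db/db replicate 3 were lowest. Atp5f1a, the alpha subunit, ranged from 662 to 1192 CPM, Atp5f1d, the delta subunit of the rotor, from 127 to 346 CPM, and Atp5f1e, the epsilon subunit, from 68.2 to 230.5 CPM. Atp5f1c ranged from 567 to 848 CPM, and all 3 ob/ob libraries lay above all 3 CT ob libraries.

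**Figure D3:**
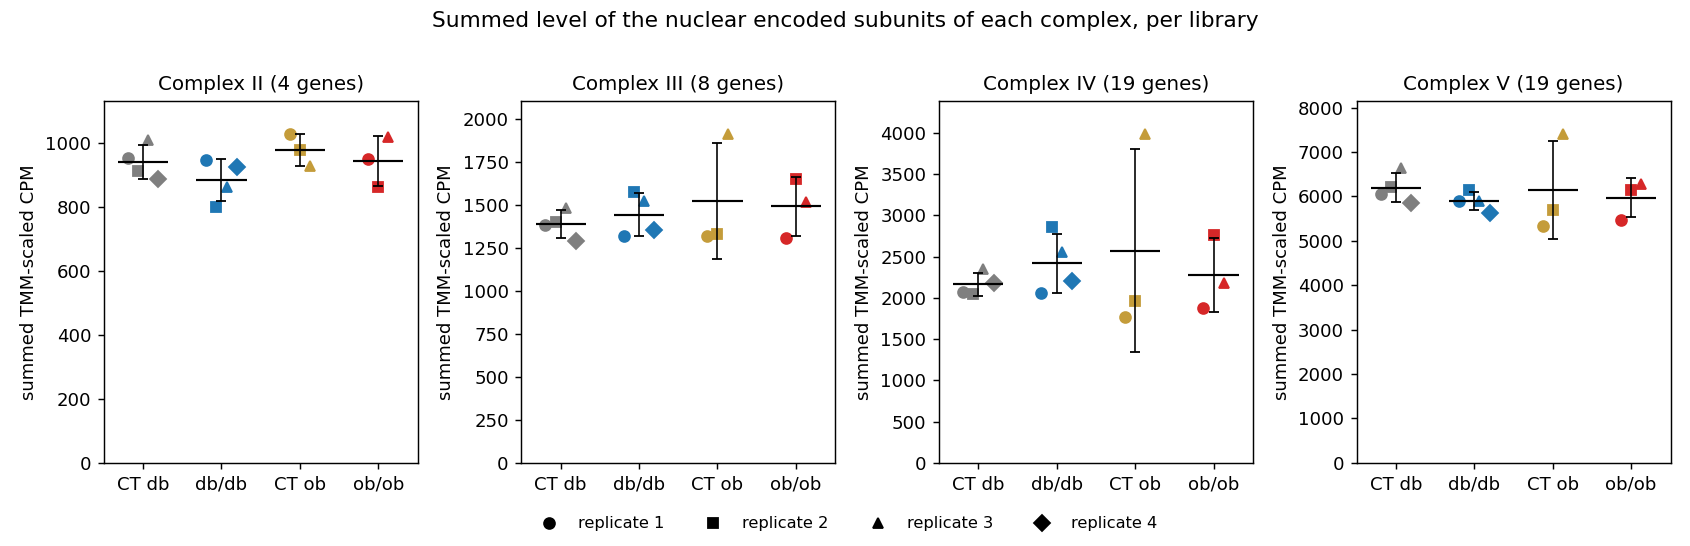
Summed TMM-scaled CPM of the members of each complex (vertical axes, from 0) by group (horizontal axes); symbols are libraries, black lines the mean and bars 1 SD. CT ob replicate 3 lies at 3986 CPM in complex IV and at 7402 CPM in complex V, above every other library, and at 929 CPM in complex II, below its group mates.

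Atp5pb, Atp5pd, Atp5pf and Atp5po form the peripheral stalk. Atp5pb, the b subunit, had 507, 621, 605 and 494 CPM in CT db, 487, 490.3, 496 and 409 in db/db, 378, 407 and 319 in CT ob, and 412, 487 and 483 in ob/ob. All 3 CT ob libraries lay below all CT db libraries and below all libraries of both mutants. Its level was lower in CT ob than in CT db (log2 difference -0.59, SE 0.15, adjusted p = 0.0331 by edgeR), in 3 of 3 against 4 of 4 libraries. The db/db libraries overlapped with CT db, and the contrast of the effects in ob and db did not pass (log2 difference 0.57, SE 0.21, adjusted p = 0.537 by edgeR). That contrast was 0.50 (adjusted p = 0.751 by edgeR) without CT ob replicate 3.

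Atp5pb was no longer called between the controls without CT db replicate 2 (-0.54, adjusted p = 0.092 by edgeR), without CT db replicate 3 (-0.56, 0.0664), without CT db replicate 4 (-0.65, 0.0563), without CT ob replicate 1 (-0.62, 0.0662) or without CT ob replicate 3 (-0.52, 0.102). With library size alone the adjusted p was 0.0938, with every gene of at least 1 count it was 0.0684, and over all alternatives it ran from 0.00104 to 0.102. A stretch of 31.8% of its canonical transcript matches a place on chromosome 11 at 98.8% identity, where Atp5pb-ps had 65 counts beside 27838 for Atp5pb, and 15.4% of it lies across genes on the other strand. Its level is uncertain to that extent. Atp5pf ranged from 371 to 872 CPM, Atp5pd from 143 to 254 CPM and the counted identifier of Atp5po from 99.6 to 238 CPM.

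**Figure D4:**
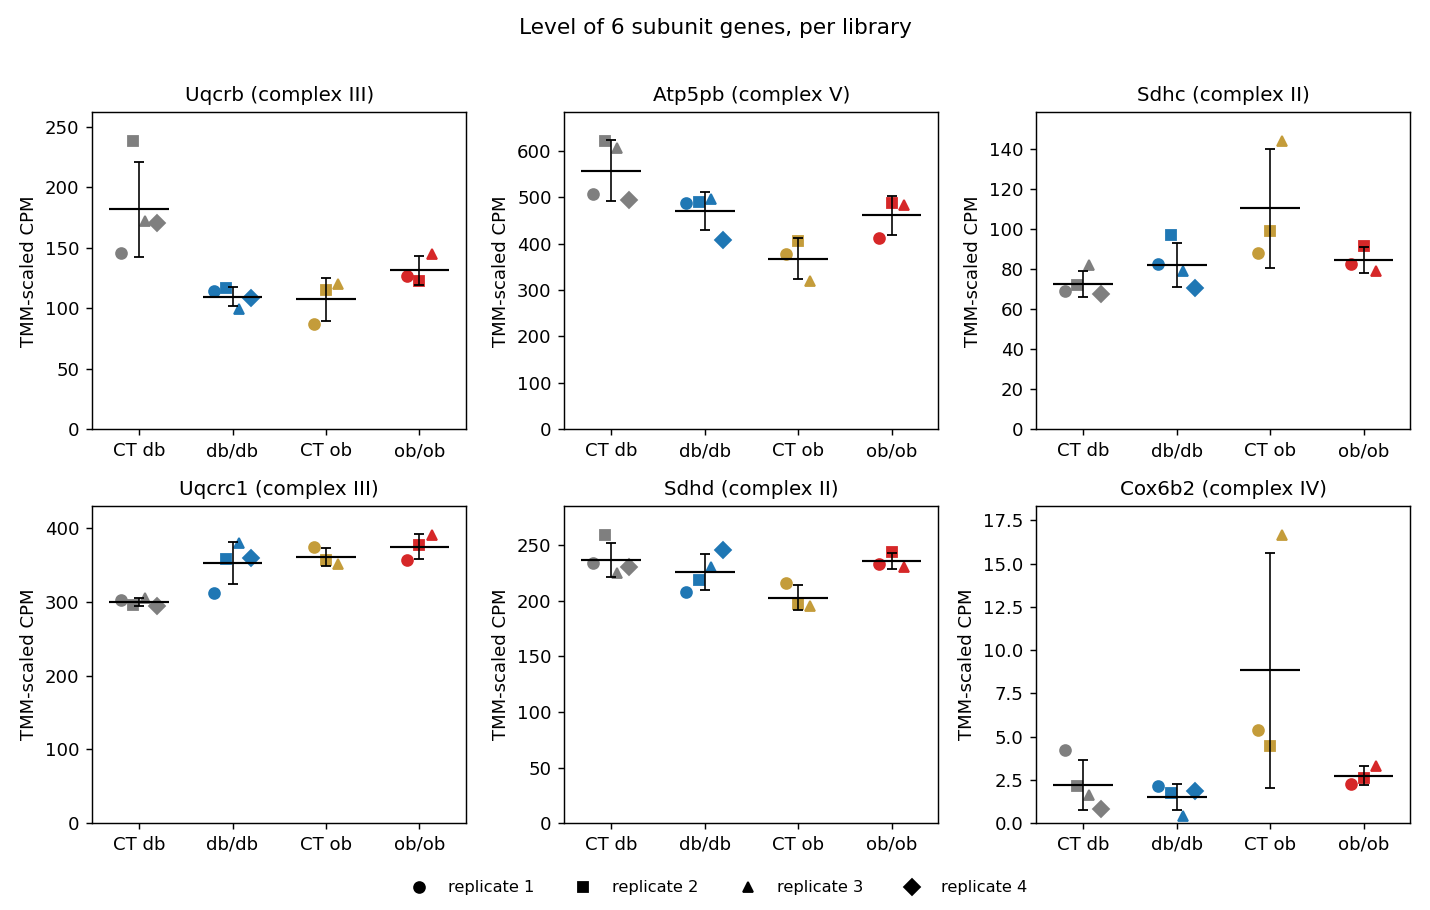
TMM-scaled CPM (vertical axes, from 0) of 6 members in each library by group (horizontal axes), chosen after their values were seen; symbols are libraries, black lines the mean and bars 1 SD. Uqcrb lies at 146 to 238 CPM in CT db and at 87.0 to 145 CPM in the other groups, and Atp5pb at 319 to 407 CPM in CT ob and at 409 to 621 CPM in the others.

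Atp5if1 encodes the inhibitor that stops complex V from splitting ATP when the gradient fails. It had 65.02, 58.8, 82.2 and 73.2 CPM in CT db, 89.1, 116, 103 and 85.6 in db/db, 59.2, 66.02 and 138 in CT ob, and 58.7, 91.7 and 64.8 in ob/ob. All 4 db/db libraries lay above all 4 CT db libraries, and CT ob replicate 3 was the highest of all. The difference did not pass the test (log2 difference 0.49, SE 0.15, adjusted p = 0.5263 by edgeR). Between the mutants the result was log2 difference -0.46, SE 0.26, adjusted p = 0.739 by edgeR, and those groups overlapped. Of its transcript, 59.6% lies across a gene on the other strand, and whether the counting kept the strands apart is not given in the sources used here.

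The membrane subunits Atp5me, Atp5mf, Atp5mg, Atp5mj and Atp5mk belong to the part of complex V in the membrane, and Atp5me and Atp5mg help to pair ATP synthases. Atp5me ranged from 28.4 to 132 CPM, Atp5mf from 84.7 to 239 CPM and Atp5mj from 124 to 275 CPM. Atp5mk ranged from 68.8 to 207 CPM, and all of its transcript lies across genes on the other strand. Atp5mg was the lowest tested member of complex V per kb, at 3.19 to 10.6 CPM. For Atp5mg 82.4% of the transcript matches 5 other places in the genome, and 1 of these, Gm4045, had 185 counts beside 419 for Atp5mg itself. The protein-coding genes Mob4 and Abcf2, which also lie at such places, had 8777 and 6507 counts. The low level of Atp5mg is therefore uncertain.

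Atp5mc1, Atp5mc2 and Atp5mc3 encode precursors of the same mature c subunit, which forms the rotor ring. Atp5mc2 had 23.9, 28.8, 36.5 and 32.2 CPM in CT db, 33.7, 48.6, 39.8 and 32.8 in db/db, 27.02, 33.6 and 85.3 in CT ob, and 29.7, 31.99 and 27.7 in ob/ob. The groups overlapped in both models, with CT ob replicate 3 highest by a wide margin. As a percent of the level per kb of the 3 genes together, Atp5mc2 was 6.603, 7.57, 9.31 and 7.97 in CT db, 9.89, 10.7, 11.2 and 10.6 in db/db, 10.1, 10.6 and 11.6 in CT ob, and 8.47, 8.83 and 7.11 in ob/ob. In these shares CT ob replicate 3 was again the highest of its group, by a smaller margin. All 4 db/db shares lay above all 4 CT db shares, and all 3 ob/ob shares lay below all 3 CT ob shares.

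The Atp5mc3 share was 67.9, 73.2, 67.3 and 71.9 in CT db, 68.7, 64.3, 66.4 and 60.3 in db/db, 58.8, 59.8 and 61.5 in CT ob, and 64.8, 64.7 and 66.5 in ob/ob. It made up most of the family in every library, and it was higher in all ob/ob than in all CT ob libraries, while db/db overlapped with CT db. The Atp5mc1 share ranged from 19.2% to 31.2%, and it was lower in all ob/ob than in all CT ob libraries. The shares were not tested, and 89.2% of the Atp5mc2 transcript and 85.8% of the Atp5mc1 transcript match other places in the genome. Of these copies, Gm10175 had 160 counts beside 2015 for Atp5mc2, and Gm10039 had 159 beside 4753 for Atp5mc1. For the level of Atp5mc2 itself, the contrast of the effects in ob and db gave a log2 difference -1.05, SE 0.44, adjusted p = 0.571 by edgeR, and it was -0.35 without CT ob replicate 3.

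Each mutant was set against the lean littermates of its model to ask how the loss of leptin or of its receptor is reflected in the GCs. With edgeR and the filter on low counts no member passed in either model. DESeq2 called Uqcrb in db/db, and edgeR with every gene of at least 1 count called Uqcrb in db/db and Cox4i2 in ob/ob, beside 0.947% and 1.12% of all genes.

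In db/db against CT db, Uqcrb was lower in all 4 db/db libraries, and Atp5if1 and Uqcrc1 were higher in all 4, but edgeR called 0 of the 42 members tested. Over all genes 0.00884% were called, 1 of 11317. At an unadjusted p under 0.05 there were 3 members, Uqcrb, Atp5if1 and Cox7c, beside 7.59% of all genes. DESeq2 called 1 member, Uqcrb, beside 0.389% of all genes, 44 of 11317. The 2 members with all db/db libraries above all CT db libraries stand beside 1.85% of all genes, and the 1 member below beside 2.28%. Without db/db replicate 1 there were 9 members at an unadjusted p under 0.05, beside 11.6% of all genes, and 6 above and 2 below, beside 5.55% and 5.86% of all genes. Without CT db replicate 1 there were 4 above, beside 3.48% of all genes. With db/db replicate 2 or 3, or CT db replicate 3 or 4, left out there were 2 below, beside 2.98%, 3.25%, 4.14% and 3.49% in that order. The genes called over all went from 1 to 4 without db/db replicate 3. Leaving a library out of the counts of members with groups that do not overlap was chosen after the data were seen.

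The median log2 difference of the 42 members was 0.10, beside 0.01 over all genes tested. It was 0.17, beside 0.08, with library size alone in place of TMM, and then 5 members had an unadjusted p under 0.05, beside 8.11% of all genes. Of the members 30 had a higher mean level in db/db and 12 a lower. In complex IV 11 of 12 were higher, with a median of 0.17, and in complex III 6 of 8, with a median of 0.20. Without db/db replicate 2 the members stood at 23 higher and 19 lower, with a median of 0.01. The median was 0.07 in complex V and -0.02 in complex II. By length, the 19 members under 1000 bases had a median of 0.21 and the 12 of 2000 bases or more -0.05, beside 0.01 and 0.06 for the shortest and longest 25% of all genes.

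In ob/ob against CT ob, edgeR called 0 of 43 members, beside 0% of 12425 genes. At an unadjusted p under 0.05 there was 1 member, Cox6b2, beside 8.16% of all genes. DESeq2 called 0 members, beside 0.66% of all genes, 82 of 12425, and 0 beside 0.676% without CT ob replicate 3. All ob/ob libraries lay above all CT ob libraries for 5 members, Atp5f1c, Atp5pb, Cox7b, Sdhd and Uqcrb, beside 8.2% of all genes. They lay below for Cox6b2 alone, beside 7.5% of all genes. Without CT ob replicate 3 there were 11 members above, beside 13.6% of all genes, and 1 below, beside 13.7%, and 4 members at an unadjusted p under 0.05, beside 7.88%. The members below numbered 4 without ob/ob replicate 3, 3 without CT ob replicate 1 and 2 without ob/ob replicate 2, beside 13.2%, 12.7% and 11.7% of all genes. With a library left out, at an unadjusted p under 0.05, there were 2 members without CT ob replicate 1 and 0 without ob/ob replicate 2, beside 8.55% and 4.75%.

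The direction over the members in the ob model turned with that library. The median log2 difference was -0.16 with all libraries, with 14 members higher and 29 lower in ob/ob, beside -0.04 over all genes. Without CT ob replicate 3 it was 0.20, with 34 higher and 9 lower, beside -0.01 over all genes. With library size alone in place of TMM it was -0.05, with 21 higher and 22 lower, beside 0.04 over all genes, so that the scaling moved all genes too. Other libraries moved its size: the median was -0.05 without ob/ob replicate 1, -0.32 without ob/ob replicate 2, -0.36 without CT ob replicate 1 and -0.31 without CT ob replicate 2. By complex the medians with all libraries were -0.09 in complex II, 0.00 in complex III, -0.22 in complex IV and -0.16 in complex V. They were -0.07, 0.20, 0.24 and 0.26 in the same order without CT ob replicate 3. Members under 1000 bases had a median of -0.24 and those of 2000 bases or more -0.01, and 0.26 and 0.06 without CT ob replicate 3.

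The controls of the 2 models were compared because each serves as the baseline of its mutant. The comparison shares its libraries with those of the mutants, so that the values stand side by side and are no independent support. In CT ob, Uqcrb and Atp5pb were lower than in CT db, and edgeR called these 2 of 43 members. Over all genes 6.63% were called, 4.39% lower and 2.24% higher in CT ob, and 0 members were called higher. At an unadjusted p under 0.05 there were 15 members, beside 26.9% of all genes. DESeq2 called 7 of 43 members, beside 12.4% of all genes, of which Uqcrb, Atp5pb, Atp5pf and Cox7b were lower and Cox6b2, Sdhc and Uqcrc1 higher in CT ob. It called 5 without CT ob replicate 3, Uqcrb, Atp5pb, Atp5pf, Atp5mc3 and Atp5mk, all lower, beside 5.69% of all genes.

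Without CT ob replicate 3 edgeR called 0 of the members and 112 of all genes, in place of 834. Without CT db replicate 2 it called 0 members and 138 genes, and without CT db replicate 4 it called 0 members and 201 genes. It called 4 members without CT db replicate 1 and 3 without CT ob replicate 2, beside 9.46% and 6.41% of all genes. Without CT db replicate 3 it called 1 member, Uqcrb, and 482 genes. It called 1 member without CT ob replicate 1, Sdhc, which was higher in CT ob, and 376 genes. With a library left out, at an unadjusted p under 0.05, there were 6 members without CT db replicate 2 and 9 without CT ob replicate 3, beside 20.9% and 20.3% of all genes. For 3 members, Cox6b2, Sdhc and Uqcrc1, all CT ob libraries lay above all CT db libraries, beside 9.8% of all genes. For 4, Atp5pb, Cox7b, Sdhd and Uqcrb, they lay below, beside 11.4%. These counts without CT ob replicate 3 were 3 above, beside 15% of all genes, and 12 below, beside 15.6%.

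The median log2 difference of the members between the controls was 0.22, beside 0.06 over all genes, with 31 members higher and 12 lower in CT ob. It was -0.11 without CT ob replicate 3, with 15 higher and 28 lower, beside 0.00 over all genes, and 0.34 without CT ob replicate 2. With all libraries the median was 0.45 for members under 1000 bases and 0.07 for those of 2000 bases or more. With that library left out these were -0.12 and 0.02. Complexes III and IV had medians of 0.31 and 0.33, complex V 0.18 and complex II 0.08. They were -0.12, -0.02, -0.15 and 0.10 in the same order without CT ob replicate 3.

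Markers of cell types were set beside this comparison. The summed level of 10 granulosa markers, of which 10 had counts, was 17970, 24410, 26250 and 27740 CPM in CT db, 18650, 21790, 23390 and 21880 in db/db, 11010, 12220 and 15550 in CT ob, and 17700, 22560 and 21410 in ob/ob. All 3 CT ob libraries lay below every other library. This rests on Gja1, the most abundant: with it left out, which was chosen after the data were seen, the sum was 5293, 5281 and 9984 CPM in CT ob and 5276, 6248, 10370 and 6909 CPM in CT db, so that the groups overlapped. Gja1 (log2 difference -1.47, SE 0.19, adjusted p = 0.00221 by edgeR) and Fshr (log2 difference -1.72, SE 0.35, adjusted p = 0.0163 by edgeR) fell against CT db in 3 of 3 libraries, while 5 of the 10 had a log2 difference above 0, and 3 of the 10 without CT ob replicate 3. With CT ob replicate 3 left out Gja1 gave -1.43 (adjusted p = 0.0124 by edgeR) and Fshr, no longer called, -1.81 (adjusted p = 0.057 by edgeR), and over the alternatives the adjusted p ran from 4.19e-14 to 0.0209 and from 1.40e-12 to 0.057. Amh, Amhr2 and Foxl2 had higher means in CT ob than in CT db, and with all libraries and the filter on low counts edgeR did not call them. Amh was 444.8, 732.5 and 570.1 CPM in CT ob and 498.2, 255.6, 104.4 and 82.17 CPM in CT db, which overlapped. Amhr2 gave a log2 difference 0.88, SE 0.31, adjusted p = 0.0886 by edgeR, with 0.0491 by DESeq2 and alternatives from 0.003 to 0.311, and Foxl2 a log2 difference 0.57, SE 0.22, adjusted p = 0.118 by edgeR, with alternatives from 0.0479 to 0.398. With CT ob replicate 3 left out Amhr2 gave 0.62 (adjusted p = 0.311 by edgeR) and Foxl2 0.36 (adjusted p = 0.398 by edgeR). The summed level of 10 oocyte markers, of which 10 had counts and Gdf9 was most abundant, was 2.81, 253, 147 and 15.8 CPM in CT db, 5.97, 47.7, 65.4 and 6.88 in db/db, 1084, 284 and 68.7 in CT ob, and 722, 209.5 and 138 in ob/ob. CT ob replicate 1 and ob/ob replicate 1 were highest, and CT ob replicate 3 lay within the range of CT db. Of the 9 tested 0 were called by edgeR in this comparison, with 5 at an unadjusted p under 0.05, and 6 without CT ob replicate 3. Theca markers ranged from 225 to 1398 CPM in sum, with Hsd3b1 most abundant, and CT ob replicate 3 was highest. With Hsd3b1 left out, db/db replicate 1 was highest at 384.5 CPM, beside 119.3 CPM in CT ob replicate 3. The summed level of 4 endothelium markers, with Pecam1 most abundant, was 3.096, 2.13, 8.24 and 4.64 CPM in CT db, 9.38, 3.44, 9.53 and 2.81 in db/db, 23.4, 25.9 and 8.84 in CT ob, and 6.903, 8.03 and 6.77 in ob/ob. CT ob replicates 1 and 2 lay above every other library. Of the 2 endothelium markers tested between the controls 0 were called by edgeR, with 1 at an unadjusted p under 0.05, and without CT ob replicate 3 1 of 3 was called higher in CT ob, with 2 at an unadjusted p under 0.05. Sums of stroma and leucocyte markers were at most 41.6 and 22.2 CPM, and the 3 stroma and 2 leucocyte markers tested between the controls had log2 differences above 0, with 0 called by edgeR and 0 at an unadjusted p under 0.05. Muscle markers were at most 1.70 CPM and erythroid markers at most 0.68 CPM, with Hba-a1 at 0. The summed oocyte level was also higher in all 3 ob/ob than in all 4 db/db libraries. Of the 9 oocyte markers tested between the mutants, 0 were called by edgeR. At an unadjusted p under 0.05 there were 9, all higher in ob/ob, beside 8.18% of all genes. The summed level of granulosa markers was higher in all 3 ob/ob than in all 3 CT ob libraries. Without Gja1 the ob/ob and CT ob libraries overlapped, with 7391, 12090 and 9149 CPM in ob/ob. For all of these markers, their part in the result was not tested.

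In ob/ob against db/db, edgeR called 0 of 43 members, beside 0.0159% of all genes, 2 of 12586. At an unadjusted p under 0.05 there were 0 members, beside 8.18% of all genes. DESeq2 called 0 members, beside 0.572% of all genes. The median log2 difference was 0.04, with 25 members higher and 18 lower in ob/ob, beside -0.01 over all genes. Cox6b2 and Uqcrb were higher in all ob/ob than in all db/db libraries, beside 5.53% of all genes, and Atp5mc2 was lower, beside 4.38%. Uqcrb gave a log2 difference 0.26, SE 0.17, adjusted p = 0.802 by edgeR. The median turned to -0.04 without db/db replicate 1, -0.03 without db/db replicate 4, -0.11 without ob/ob replicate 2 and -0.02 without ob/ob replicate 3, and it was 0.06 without db/db replicate 2 and 0.10 without ob/ob replicate 1. Without ob/ob replicate 2 there was 1 member at an unadjusted p under 0.05, beside 10.7% of all genes, and 4 members lay below, beside 11.3%. The members above numbered 5 without ob/ob replicate 1 and 4 without db/db replicate 2, beside 8.22% and 7.48% of all genes. There were 2 members below without ob/ob replicate 3 or without db/db replicate 4, beside 7.5% and 6.11%.

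The effects of the mutations were set against each other by a test of their difference, ob minus db. It called 0 of 43 members, beside 0% of 12586 genes. At an unadjusted p under 0.05 there were 5 members, Uqcrb, Atp5pb, Atp5mc2, Cox7b and Sdhc, beside 8.11% of all genes, and 6 members beside 6.15% without CT ob replicate 3. DESeq2 called 1 member, Uqcrb, beside 0.501% of all genes, 63 of 12586, and Uqcrb alone beside 0.25% without CT ob replicate 3. The median of the members was -0.27, beside -0.04 over all genes, with 30 of 43 below 0. Without CT ob replicate 3 it was 0.09, with 26 above and 17 below 0, beside 0.02 over all genes. It was -0.15 without ob/ob replicate 1, -0.17 without db/db replicate 2, and -0.46 both without ob/ob replicate 2 and without CT ob replicate 1. The median with library size alone was -0.18, beside -0.02 over all genes. With a library left out, at an unadjusted p under 0.05, there were 11 members without CT ob replicate 1 and 10 without CT ob replicate 2, beside 11.6% and 10.2% of all genes. There were 2 without CT db replicate 2, beside 5.69%. There were 3 each when db/db replicate 1, db/db replicate 2, ob/ob replicate 1 or ob/ob replicate 3 was left out, beside 7.86%, 6.76%, 6.68% and 8.02% of all genes. The members under 1000 bases had a median of -0.51 and those of 2000 bases or more 0.02 with all libraries, and 0.06 and 0.02 without CT ob replicate 3.

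The spread within groups was described without a test and without matching genes by level. The median SD of the log2 level was 0.163 for the 43 members in CT db, beside 0.294 over the 11995 genes, the members among them. It was 0.243 beside 0.296 in db/db, and 0.27 beside 0.279 in ob/ob. In CT ob it was 0.591 beside 0.367, and 0.118 beside 0.183 without CT ob replicate 3. The median of the members lay below that of all genes in each group, other than in CT ob with that library. After Cox4i2, the members with the widest pooled SD were Cox6b2 (0.93), Atp5me (0.64) and Uqcrq (0.61), at 0.85, 0.34 and 0.50 without CT ob replicate 3.

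The mitochondrially encoded partners of these subunits were mt-Cytb of complex III, mt-Co1, mt-Co2 and mt-Co3 of complex IV, and mt-Atp6 and mt-Atp8 of complex V. Only mt-Cytb and mt-Co1 passed the filter. The mean levels of mt-Co2, mt-Co3, mt-Atp6 and mt-Atp8 were 0.183, 0.324, 0.711 and 0.0729 CPM, beside 12620 for mt-Co1 of the same mitochondrial genome, so that what the counts of mitochondrial genes measure is uncertain. mt-Cytb had 6837, 10570, 9207 and 10200 CPM in CT db, 6180, 4427, 5445 and 6027 in db/db, 5341, 5388 and 4147 in CT ob, and 6739, 5006 and 7890 in ob/ob. mt-Co1 had 14870, 26570, 14100 and 20150 CPM in CT db, 14930, 9352, 7763 and 13480 in db/db, 9075, 9337 and 3962 in CT ob, and 15470, 9228 and 8348 in ob/ob. For both genes all CT ob libraries lay below all CT db libraries, and CT ob replicate 3 was lowest. Both fell in CT ob against CT db (mt-Cytb: log2 difference -0.89, SE 0.21, adjusted p = 0.0277 by edgeR; mt-Co1: log2 difference -1.34, SE 0.35, adjusted p = 0.0371 by edgeR). They were -0.79 (adjusted p = 0.096 by edgeR) and -1.05 (adjusted p = 0.122 by edgeR) without CT ob replicate 3, no longer called. For both the call was also lost without CT db replicate 2, CT db replicate 4 or CT ob replicate 1 (mt-Cytb: -0.82, -0.84 and -0.95; mt-Co1: -1.13, -1.31 and -1.51). Over the alternatives the adjusted p ran from 6.70e-04 to 0.096 and from 3.14e-05 to 0.122. Neither was called in db/db against CT db (mt-Cytb: log2 difference -0.74, SE 0.19, adjusted p = 0.398 by edgeR; mt-Co1: log2 difference -0.74, SE 0.27, adjusted p = 0.567 by edgeR), although both had an unadjusted p under 0.05 and all 4 db/db libraries of mt-Cytb lay below all 4 CT db libraries. For mt-Cytb the contrast of the effects in ob and db gave a log2 difference 1.14, SE 0.29, adjusted p = 0.276 by edgeR, and 1.05 (adjusted p = 0.469 by edgeR) without CT ob replicate 3.

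Other genes of the pathway were taken from lists of textbook roles. Of 4 carriers and further subunits (Cyc1, Cycs, Ndufa4 and Ndufa4l2), 0 were called in any comparison. Of the assembly factors, 4 listed for complex II, 6 for complex III, 23 for complex IV (20 tested) and 5 for complex V, 1 was called, between the controls, where 6.63% of all genes were called: Ttc19, which clears fragments of Uqcrfs1 from complex III. Ttc19 had 81.6, 142, 111 and 95.3 CPM in CT db, 78.4, 123, 124 and 74.4 in db/db, 35.1, 60.8 and 51.7 in CT ob, and 86.97, 102 and 82.8 in ob/ob. All CT ob libraries lay below all libraries of the other groups, and it fell against CT db (log2 difference -1.13, SE 0.25, adjusted p = 0.0222 by edgeR). It was no longer called without CT ob replicate 3, at -1.19 (adjusted p = 0.0654 by edgeR), and over the alternatives the adjusted p ran from 1.64e-05 to 0.0692. Its call was also lost without CT db replicate 2 (-0.96, adjusted p = 0.0692 by edgeR) and without CT ob replicate 1 (-0.93, 0.0643). In ob/ob against CT ob it did not pass (log2 difference 0.88, SE 0.24, adjusted p = 0.539 by edgeR), nor did it in the contrast of the effects in ob and db (log2 difference 0.99, SE 0.34, adjusted p = 0.508 by edgeR). These were 0.92 (adjusted p = 0.618 by edgeR) and 1.05 (adjusted p = 0.676 by edgeR) without CT ob replicate 3. Sdhaf1, needed to mature Sdhb, had 4.79, 2.34, 4.396 and 2.73 CPM in CT db, 5.97, 3.87, 3.03 and 1.88 in db/db, 4.79, 4.48 and 12.9 in CT ob, and 1.73, 1.94 and 3.08 in ob/ob. The highest library was CT ob replicate 3. In ob/ob against CT ob it gave a log2 difference -1.69, SE 0.56, adjusted p = 0.561 by edgeR, and -1.03 (adjusted p = 0.664 by edgeR) without CT ob replicate 3. Between the mutants the smallest p values of the lists were those of Taco1, a translation activator of mt-Co1, and of Atpaf2, which helps to assemble the head of complex V. Taco1 had 17.7, 14.9, 18.7 and 13.9 CPM in CT db, 14.1, 12.5, 16.9 and 10.9 in db/db, 20.5, 14.7 and 11.2 in CT ob, and 17.6, 22.02 and 20.7 in ob/ob. All 3 ob/ob libraries lay above all 4 db/db libraries (log2 difference 0.57, SE 0.24, adjusted p = 0.524 by edgeR). Atpaf2 had 43.1, 30.5, 36.5 and 33.3 CPM in CT db, 33.7, 39.6, 29.4 and 32.5 in db/db, 40.2, 45.8 and 33.3 in CT ob, and 41.9, 40.02 and 46.7 in ob/ob. The order of those groups was the same (log2 difference 0.34, SE 0.17, adjusted p = 0.643 by edgeR). Sco2 and Pet117 had no count.

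Of 10 regulators of respiratory genes, among them Nrf1, Gabpa, Esrra and Yy1, 8 passed the filter and 0 were called in any comparison. The most abundant was Gabpa, and the summed level of the 10 was 377, 358, 316 and 338 CPM in CT db, 371, 381, 364 and 400.0 in db/db, 414, 382 and 328 in CT ob, and 379, 343 and 356 in ob/ob. The groups overlapped. Their median log2 difference was 0.18 in db/db against CT db and -0.05 in ob/ob against CT ob, beside 0.01 and -0.04 over all genes. The latter was -0.20, beside -0.01, without CT ob replicate 3. At an unadjusted p under 0.05 there were 0 in both of these comparisons, beside 7.59% and 8.16% of all genes. Between the controls there were 2 of the 8, beside 26.9% of all genes, and 1 of 9 tested, beside 20.3%, without CT ob replicate 3.

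Promoter windows from RefSeq (GRCm38.p6, 250 bases before to 50 after the start) were matched to 36 of the 50 identifiers, or 35 genes. Uqcrb, Sdhc, Cox4i1 and Cox4i2 were among those not matched. The letters GCGCATGC, the core of the site of NRF1, were found on either strand in 7 of the 35 genes (20%), beside 3.05% of 27025 genes. A gene counted where any of its windows held the letters. CCGGAAGT, the site of ETS factors and GABP, was found in 4 (11.4%), beside 4.31%. AAGATGGC, the site of YY1, was found in 3 (8.57%), beside 3.19%. GGGCGG of SP1 was found in 13 (37.1%), beside 38.2%, and CCAAT of NF-Y in 19 (54.3%), beside 41.1%. These are matches of letters and not bound sites.

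The NRF1 letters lay in the windows of Sdhb, Uqcr11, Uqcrc1, Cox6a1, Atp5mc2, Atp5me and Atp5mg. In 5 of these they lay before the start, and those stretches are shown, on the strand of the gene. This motif was shown because its share among the members differs most from that of all genes with a window. Capitals mark the motif, where 10 capitals hold 2 overlapping copies on opposite strands. The stretches lie at chr4:140961197-140961244 on the plus strand for Sdhb, and on the minus strand at chr5:115349091-115349140 for Cox6a1, chr15:102671060-102671109 for Atp5mc2, chr5:108434420-108434469 for Atp5me and chr9:44920955-44920992 for Atp5mg.
Sdhb: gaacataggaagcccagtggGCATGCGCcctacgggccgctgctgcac
Cox6a1: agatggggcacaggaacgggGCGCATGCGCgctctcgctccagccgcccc
Atp5mc2: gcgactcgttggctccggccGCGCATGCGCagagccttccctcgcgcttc
Atp5me: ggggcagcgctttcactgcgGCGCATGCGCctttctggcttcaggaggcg
Atp5mg: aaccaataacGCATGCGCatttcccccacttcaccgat

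Shared sequence limits the levels of several members. Of the 50 canonical transcripts, 16 matched other places of the genome over at least 75 bases at 98% identity or more, and 8 of them over at least 50% of their length: Uqcrb, Cox5b, Cox5b-ps, Cox7c, Atp5mc1, Atp5mc2, Atp5mg and Atp5pd. Protein-coding genes lie at some of the matched places, where Pitpna had 4414 counts beside 4824 for Cox7c, and Rpl37 11953 beside 10980 for Atp5pd. Cox5b matched Cox5b-ps over 55.6% of its length, with 5711 and 15 counts. With or without such copies, 29 members share exon bases with another gene, nearly always on the other strand. The strand setting of the counting is not given in the sources used here, so that whether the reads of such pairs were kept apart is not known here. Sdhc, Sdhd, Uqcrfs1, Uqcrq, Cox6a1, Cox6b1 and Cox6c were among the members with neither kind of overlap.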

How the data were processed

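The counts on genes were made by the authors before the matrix was deposited. The submitters' processing notes name FastQC, Trim Galore 0.6.2, HISAT2 2.1.0 and GRCm38, while the methods of the paper name cutadapt, STAR, GRCm39 and featureCounts. The strand setting and the handling of reads with several matches are not given in them. The libraries were amplified by PCR without unique molecular identifiers, so copies of a molecule were counted as reads.

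Genes were matched by identifier to GENCODE M39 for type, symbol and length. Genes with few counts were removed with filterByExpr (minimum count 10, minimum total 15), libraries were scaled with TMM, and groups were compared with the quasi-likelihood test of edgeR 4.0.16 in R 4.3.3 (limma 3.58.1), adjusted over all genes tested by Benjamini-Hochberg with a threshold of 0.05. The mutant of each model was compared in a fit of its 2 groups, and the other comparisons in 1 fit of the 4 groups. DESeq2 1.42.0 was run beside it. Transcripts were matched to the genome with BLAST 2.17.0. Tables and figures were made with Python 3.11.15, pandas 2.3.3, numpy 2.4.6 and matplotlib 3.10.9.

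Members were described by library or by test where they were among the 3 highest or 2 lowest detected of their complex per kb, had any of the 3 smallest p in a comparison, were called, or belong to an isoform family. Pathway genes were named where called or among the 2 smallest p of a comparison. Members with groups that did not overlap were added after the data were seen, and the remaining members are given by their range, count, copies or part in a count. The members and the lists were chosen with earlier results of these data known. CT ob replicate 3 was kept in all results and left out in those given without it.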

Additional observations from a re-analysis of the deposited data

Results flagged for a closer look

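Uqcrq in CT db replicate 3 was 188.5 CPM, while the other CT db libraries lay between 104.2 and 117.7 CPM. Atp5pb in db/db replicate 4 was 408.7 CPM, while the other db/db libraries lay between 487.2 and 495.8 CPM. Both stood further from the rest of their group than a rule for single values in groups of 4 allows. Such a rule is passed by chance in about 1 in 20 groups. With 78 groups looked at, 3.9 would be reached by chance, and 2 were found. These 78 share the same CT db and db/db libraries and are not independent. CT ob and ob/ob, with 3 libraries each, were too small for this rule and were not looked at.

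For Uqcrb the effects of the mutations had opposite signs, with all db/db libraries below all CT db libraries and all ob/ob libraries above all CT ob libraries. In ob/ob against CT ob it did not pass (log2 difference 0.28, SE 0.19, adjusted p = 0.713 by edgeR). Without CT ob replicate 3 DESeq2 gave 0.38 (adjusted p = 0.751 by DESeq2). The difference of the effects was 1.0193 on the log2 scale, with SE 0.24 and an adjusted p of 0.265 by edgeR, so that it did not pass. Without CT ob replicate 3 it was 1.13, with an adjusted p of 0.342 by edgeR.

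The share of Atp5mc2 in its family was higher in all db/db than in all CT db libraries and lower in all ob/ob than in all CT ob libraries. Mutant minus control was 2.722 percentage points in the db model, and 1.238 with the length of all exons joined. It was -2.615 percentage points in the ob model, -2.181 without CT ob replicate 3 and -1.265 with the length of all exons joined, and the difference between the models was not tested.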

How the results depend on the processing

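No paired analysis was possible because the columns of the matrix carry no replicate number that ties them to the labels.

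Members called in db/db against CT db numbered 1 with DESeq2, beside 44 of 11317 genes, and 1 with every gene of at least 1 count, beside 270 of 28505, in place of 0 beside 1 gene with edgeR. In ob/ob against CT ob the latter filter gave 1, Cox4i2, beside 359 of 32006 genes. With 1 fit of the 4 groups, 0 members were called in either model. At an unadjusted p under 0.05 that fit gave 1 member in db/db against CT db, in place of 3, beside 5.96% of all genes. In ob/ob against CT ob it gave 2, in place of 1, beside 12% of all genes. In CT ob against CT db there were 7 with DESeq2, 1 with library size alone and 6 with every gene of at least 1 count, in place of 2, beside 12.4%, 2.07% and 4.97% of all genes, in place of 6.63%. The 6 were Atp5me, Atp5mk, Atp5pf, Cox4i2, Cox6b2 and Uqcrb, without Atp5pb. With each library left out in turn this count ran from 0 to 4 with edgeR, and DESeq2 without CT ob replicate 3, chosen after seeing the data, gave 5. For the contrast of the mutant effects there was 1 with DESeq2, with or without that library, and 2, Cox4i2 and Uqcrb, with every gene of at least 1 count, beside 63 of 12586, 33 of 13180 and 329 of 34753 genes, in place of 0. The median member difference of that contrast ran from -0.4612 to 0.0909 with each library left out.

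The mean shares of isoforms depended on the length used, an alternative chosen after seeing the data. With all exons joined they were 5.034% for Cox4i2, 2.518% for Cox6b2, 2.759% for Cox7a1, 9.184% for Atp5mc1, 3.728% for Atp5mc2 and 87.09% for Atp5mc3. Without a length Atp5mc1 was 17.82% and Atp5mc3 74.33%. With coding length Atp5mc1 was 18.4%, Atp5mc2 7.554% and Atp5mc3 74.04%.

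Of 1911 alternatives over 139 pairs of a member and a comparison, 1758 gave the same result, 11 a weaker, 16 a stronger and 126 the opposite sign. Of the last, 2 belonged to pairs with an unadjusted p under 0.05, and 30 left out CT ob replicate 3. A weaker result was a call lost and a stronger result a call gained, at an adjusted p of 0.05. Only 2 member results were called by edgeR, so the same result mostly means a member that stayed uncalled with its sign. It says little of the size: Cox6b2 in ob/ob against CT ob went from -1.67 to -0.84 without CT ob replicate 3 and stayed uncalled.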

Other observations

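The levels here come from pooled cells of few libraries, and nothing says whether the libraries of a group are separate animals. CT ob replicate 3 sets the direction of the median in 3 comparisons, and both calls by edgeR among the members, between the controls, are lost without it. They are also lost without CT db replicate 2, CT db replicate 4 or CT ob replicate 1. Without CT ob replicate 3 the log2 differences of Uqcrb and Atp5pb were -0.86 and -0.52, in place of -0.76 and -0.59, and DESeq2 called both. Transcript levels say nothing of the amount or activity of the enzyme complexes. Copies elsewhere in the genome and genes on the other strand limit the counts of several members, and lengths were taken from the annotation, not from the reads. The isoform shares and the promoter letters were described without a test.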
